A study of Mus musculus with 6 samples.

Results

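The genes of the proteasome and its regulators were examined in bone marrow cells of wild-type (WT) and Dnmt3a knockout (KO) mice. They were taken as the rows of the deposited expression table whose symbol begins with Psma, Psmb, Psmc, Psmd, Psme, Psmf or Psmg followed by a digit. This gave 49 of 15139 rows. Within them, the 5 immunoproteasome and PA28 genes Psmb8, Psmb9, Psmb10, Psme1 and Psme2 were set against the other 44. One name match, Psmc3ip, encodes a protein of meiotic recombination and is not a proteasome gene.

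The WT group was labelled MxCre+v: Dnmt3a+/+ and the KO group MxCre+v: Dnmt3a-/-, so that both carry Mx-Cre, a recombinase transgene driven by an interferon-responsive promoter and used for deletion in blood cells. Marrow cells from both groups spent 1 week in culture with 2 cytokines, IL3 at 10 ng/ml and SCF at 50 ng/ml, before sequencing of mRNA. One label field calls the KO samples a knockdown, while the genotype and growth fields give a knockout. WT had 3 libraries. KO replicates 2 and 3 were analysed, and KO replicate 1 was not analysed here. No age of the mice is given here. Whether replicates are separate animals or cultures is not stated in the labels, so p-values measure only the spread between these libraries, which may be technical. In bulk RNA, fewer cells of a type and less RNA per cell cannot be told apart.

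The proteasome degrades proteins that carry ubiquitin. Its barrel, the 20S core, stacks outer rings of α subunits on inner rings of β subunits, of which Psmb5, Psmb6 and Psmb7 hold the catalytic sites. The 19S cap binds ubiquitinated proteins, removes ubiquitin and threads the unfolded chain into the core with a ring of ATPases. In cells exposed to interferon γ, and constitutively in many blood cells, Psmb8 (LMP7), Psmb9 (LMP2) and Psmb10 (MECL-1) take the places of Psmb5, Psmb6 and Psmb7 and form the immunoproteasome, whose peptides are loaded on MHC class I. The PA28αβ activator, made of Psme1 and Psme2, is induced by the same cytokine.

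Levels were given as FPKM, fragments scaled to gene length and to all mapped fragments, so read depth cannot be read from them. The sum over genes lay between 560387 and 604368 FPKM in each library. Dnmt3a itself, at 6.68, 9.99 and 9.04 FPKM in WT replicates 1, 2 and 3, was at 2.58 and 3.42 FPKM in KO replicates 2 and 3 (log2 change -1.25 ± 0.17 SE, limma adjusted p = 0.00279). By Xist and Ddx3y, WT replicates 2 and 3 were female and WT replicate 1 and both KO libraries male. Of 11365 genes tested over the whole table with limma on log2(FPKM + 1), 22.1% passed an adjusted p of 0.05. Calls were split into 41.2% higher and the rest lower, and after upper-quartile scaling 52.3% were higher. Markers of cell types differed between the groups. Of 15 monocyte and macrophage genes 13 fell, and all 7 tested dendritic cell and MHC class II genes fell. All 10 neutrophil genes fell, and 7 of 10 mast cell genes rose. Over all tested genes, 13% were lower and 9.08% higher.

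The proteasome genes that passed the test were all lower in KO and lay in the core, the cap and the immunoproteasome. Of the 49 genes, 48 passed the filter on low values, and 10 of these were lower in KO (limma, adjusted p under 0.05), a share of 20.8%, against 13% of all tested genes lower. Among the 10, Psma8 passed that filter only through WT, so its call gives no support to the count. Without Psma8 the count was 9 of 47, a share of 19.1%. No proteasome gene was higher, against 9.08% of all tested genes, and of the 27 with an unadjusted p under 0.05 all were lower. Over all 11365 tested genes, 3944 had an unadjusted p under 0.05, of which 2387 were lower and 1557 higher. The estimated log2 change, KO minus WT, was negative for 47 of the 48, against 57.0% of all tested genes. The median change was -0.21 over the 48 and -0.04 over all tested genes. In 33 of the 48 both KO libraries lay below every WT library, against 30.8% of all tested genes, and in none did both lie above, against 20.4%. The 48 include Psmc3ip, the name match outside the proteasome. Their median WT mean was 72.9 FPKM, against 11.4 FPKM over all tested genes. The part of level in these shares was not tested.

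**Figure D1:**
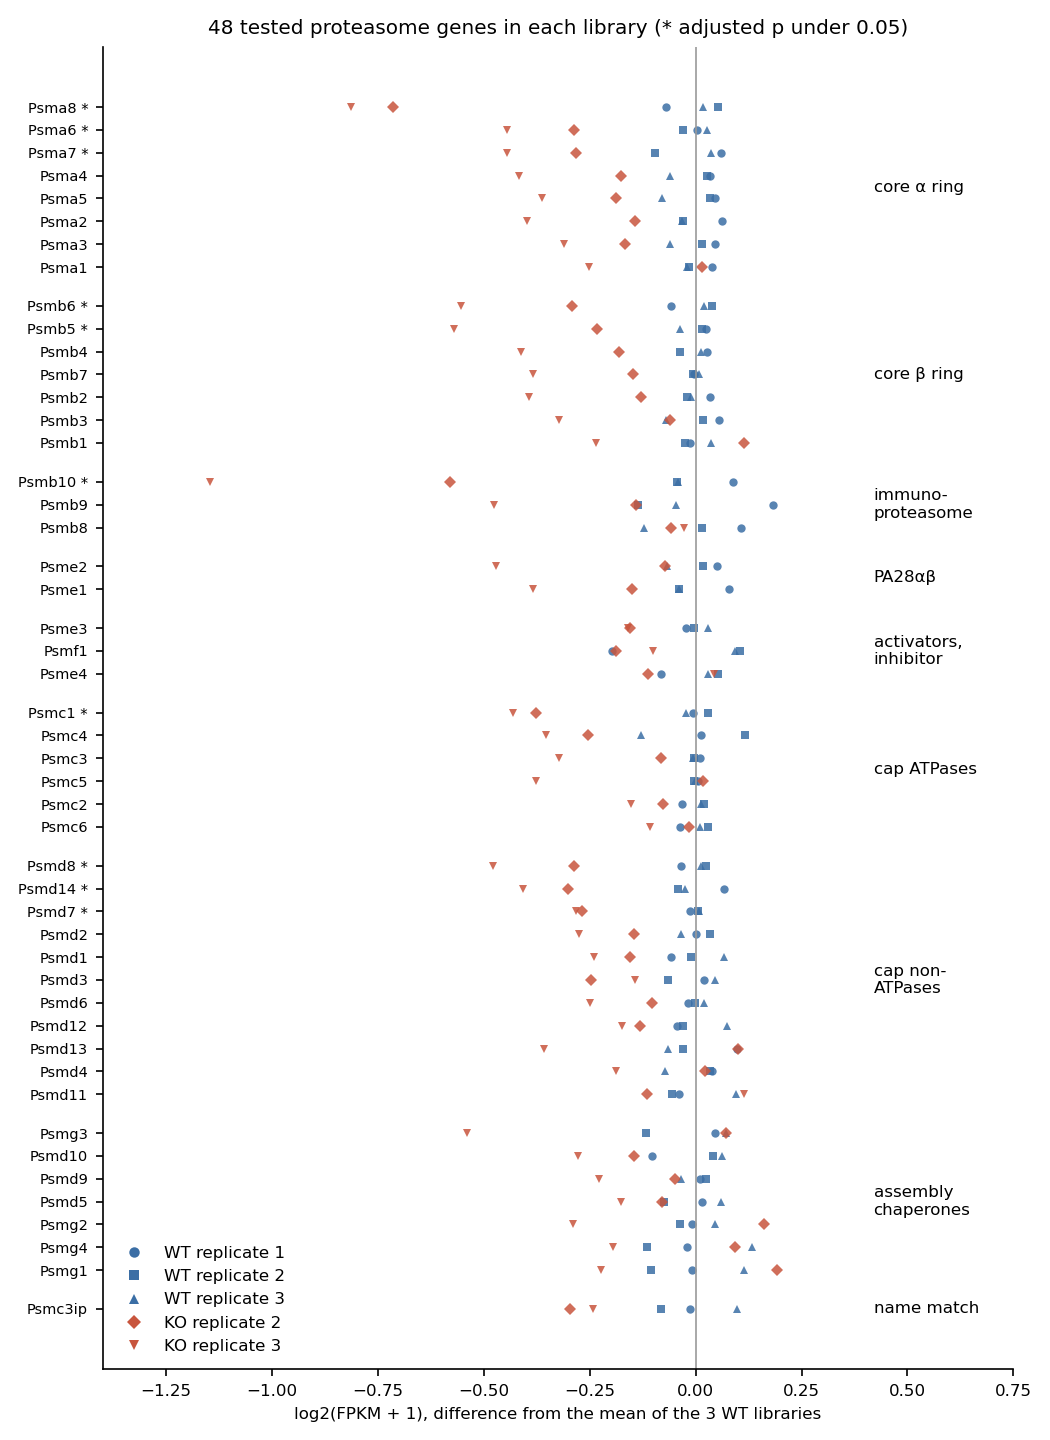
Log2(FPKM + 1) of each of the 48 tested genes in each library, as the difference from the mean of the 3 WT libraries (horizontal axis), with genes grouped by their place in the complex. WT points (blue) lie close to 0, most KO points (red) lie to the left, KO replicate 3 (downward triangles) lies left of KO replicate 2 (diamonds) in 42 genes, and stars mark the 10 genes that passed the test. Among these, Psma8 passed the filter on low values only through WT.

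The KO libraries differed from each other in these genes. The median difference from the WT mean, on the log2 scale, was -0.14 in KO replicate 2 and -0.32 in KO replicate 3, whereas WT replicates 1, 2 and 3 were within 0.01 of 0. KO replicate 3 was the lower of the pair in 42 of 48 proteasome genes (87.5%), against 45.0% of all tested genes. All 7 lists of cell type markers also had a lower summed level in KO replicate 3 than in KO replicate 2. Among them were the dendritic cell and MHC class II list (165.8 against 325.9 FPKM) and the neutrophil list (12596 against 16331 FPKM). The mast cell list was at 27804 against 32024 FPKM. Such sums follow the most abundant genes, and single markers went both ways. Of the mast cell markers, Cpa3 was lower in KO replicate 3 (17551 against 19655 FPKM) and Kit higher (210.5 against 179.1 FPKM). The sum over all genes was also lower in KO replicate 3, at 560387 against 603615 FPKM. The part of the cell types in the difference was not tested. Without KO replicate 2, 29 proteasome genes were lower, and without KO replicate 3, 8 were. Each of these fits holds a single KO library, takes its spread from the WT libraries alone and assumes that the KO library varies like them, which holds for every value given below without a KO library. Leaving out WT replicate 1, 2 or 3 gave counts of 6, 5 and 4 lower. The 4 without WT replicate 3 held 3 of the 10 first called, and Psmc4 as a new call. With sex as a covariate, a fit in which the KO libraries are compared with WT replicate 1, 1 gene passed, Psmb10, while the median log2 change over the tested genes outside the immunoproteasome and PA28 group was -0.22, against -0.20 without it.

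Among the constitutive catalytic subunits, Psmb5 and Psmb6 fell and Psmb7 did not pass. Psmb5, the chymotrypsin-like subunit and the main target of bortezomib, was at 171.6, 170.4 and 164.4 FPKM in WT (here and below replicate 1, 2 and 3 in turn) and at 143.4 and 113.4 FPKM in KO (replicate 2, then 3). The groups did not overlap, and KO replicate 3 was the lowest library. The WT mean was 168.8 ± 3.89 FPKM (SD, n = 3) and the KO mean 128.4 ± 21.2 FPKM (SD, n = 2), which gave a log2 difference of -0.40 ± 0.11 (SE) and a limma adjusted p of 0.0339. Psmb6, the caspase-like subunit, was at 120.8, 129.2 and 127.6 FPKM in WT and at 102.6 and 85.3 FPKM in KO, a log2 change of -0.42 ± 0.09 (adjusted p = 0.0184). Its KO libraries also lay below every WT library. Psmb7, the trypsin-like subunit, was at 142.9, 142.6 and 144.0 FPKM in WT and at 129.2 and 109.5 FPKM in KO, a log2 change of -0.26 ± 0.09 that did not pass (adjusted p = 0.0699), although the groups did not overlap. The call of Psmb5 was lost under 10 of 14 alternatives, among them leaving out WT replicate 1, 2 or 3 or KO replicate 3 (limma adjusted p = 0.0842, 0.101, 0.0815 and 0.0597), and that of Psmb6 with sex as a covariate (0.149) and without WT replicate 2 or 3 (0.0703 and 0.0653). Psmb7 passed without KO replicate 2 (log2 change -0.38, adjusted p = 0.00935).

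Of the immunoproteasome subunits, Psmb10 fell and Psmb8 and Psmb9 did not pass. Psmb10 was at 52.1, 47.4 and 47.5 FPKM in the 3 WT libraries and at 32.4 and 21.6 FPKM in KO. Both KO libraries were well below the WT range, and the KO mean of 27.0 ± 7.67 FPKM (SD, n = 2) was 55.1% of the WT mean of 49.0 ± 2.66 FPKM (SD, n = 3). The log2 change was -0.86 ± 0.16 (SE; adjusted p = 0.00814), the largest of the 48 genes on the log2(FPKM + 1) scale. With a pseudocount of 0.1 the scarce Psma8 had the larger change (-1.50, against -0.89 for Psmb10). Psmb10 passed under all 14 alternatives, with changes between -1.15 and -0.58. Psmb8 was at 101.0, 94.6 and 85.9 FPKM in WT and at 89.9 and 91.9 FPKM in KO. The KO libraries lay within the WT range, with a log2 change of -0.04 ± 0.09 (adjusted p = 0.772) whose sign turned positive under each of the 3 scalings of the libraries, with the replicate block and without WT replicate 1. Psmb9 was at 50.9, 40.6 and 43.4 FPKM in WT and at 40.5 and 31.9 FPKM in KO. KO replicate 2 was almost level with WT replicate 2, and the log2 change of -0.31 ± 0.13 did not pass (adjusted p = 0.144; 0.0497 without KO replicate 2).

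**Figure D2:**
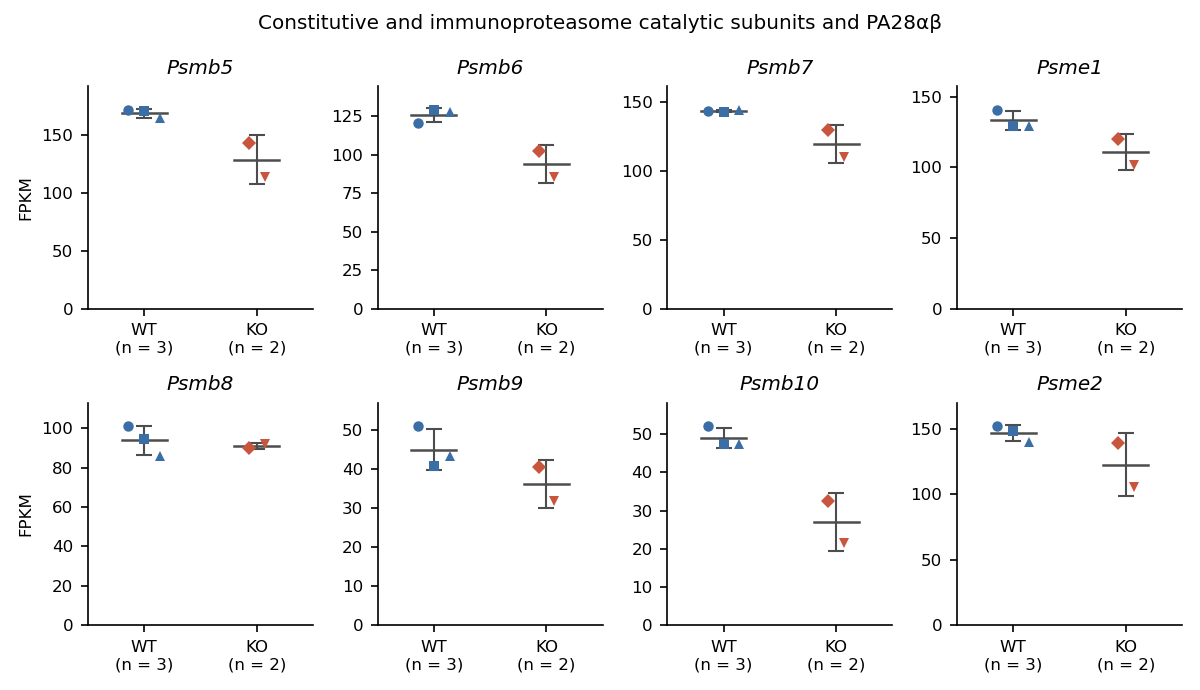
FPKM (vertical axes, from 0) of the constitutive catalytic subunits Psmb5, Psmb6 and Psmb7, their immunoproteasome counterparts Psmb8, Psmb9 and Psmb10 below them, and the PA28αβ genes Psme1 and Psme2, with points for the libraries and bars for the mean ± SD. The KO libraries of Psmb10 are at 32.4 and 21.6 FPKM against at least 47.4 FPKM in WT, while those of Psmb8 lie inside the WT range.

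The PA28αβ activator genes, which open the gate of the core, did not pass the test. Psme1 was at 140.9, 129.5 and 129.7 FPKM in WT and at 119.9 and 101.8 FPKM in KO, a log2 change of -0.27 ± 0.09 (adjusted p = 0.0817). Psme2 was at 152.2, 148.5 and 140.0 FPKM in WT and at 139.6 and 105.6 FPKM in KO, a log2 change of -0.27 ± 0.12 (adjusted p = 0.157). In both genes the KO libraries were below all WT libraries, for Psme2 by a small margin in KO replicate 2. Reads of Psme2 can be shared with its near-identical copy Psme2b, so its level is uncertain. Both passed without KO replicate 2, with log2 changes of -0.38 and -0.47 (adjusted p = 0.0190 and 0.00929).

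As a group, the 5 immunoproteasome and PA28 genes held 1 lower gene and a median log2 change of -0.27. The other 43 tested genes held 9 lower genes and a median of -0.20. The shares of lower genes were 20% and 20.9%, against 13% of all tested genes. The difference between these medians, -0.07, was smaller than the range that leaving out a KO library gave, from -0.18 without KO replicate 2 to 0.01 without KO replicate 3. Psmb10 and Psmb8 lay farther apart from each other than the medians of the groups did.

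The balance of each immunoproteasome subunit with the subunit it replaces was read as a ratio of FPKM within each library, which does not move with library scaling. Psmb8 to Psmb5 was 0.588, 0.555 and 0.523 in the 3 WT libraries and 0.627 and 0.811 in KO. Both KO libraries were above all WT libraries. Psmb10 to Psmb7 was 0.365, 0.333 and 0.330 in WT and 0.251 and 0.197 in KO, with both KO libraries below all WT libraries. Psmb9 to Psmb6 was 0.422, 0.315 and 0.340 in WT and 0.395 and 0.374 in KO, and the groups overlapped. On the log2 scale the differences, KO minus WT, were 0.36, -0.62 and 0.11. In an exact permutation test over libraries (two-sided, 3 against 2) the p-values were 0.2 for Psmb8 to Psmb5 and for Psmb10 to Psmb7, which is the smallest value this design allows, and 0.6 for Psmb9 to Psmb6. This test can therefore not reach 0.05 for any of the 3 ratios.

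**Figure D3:**
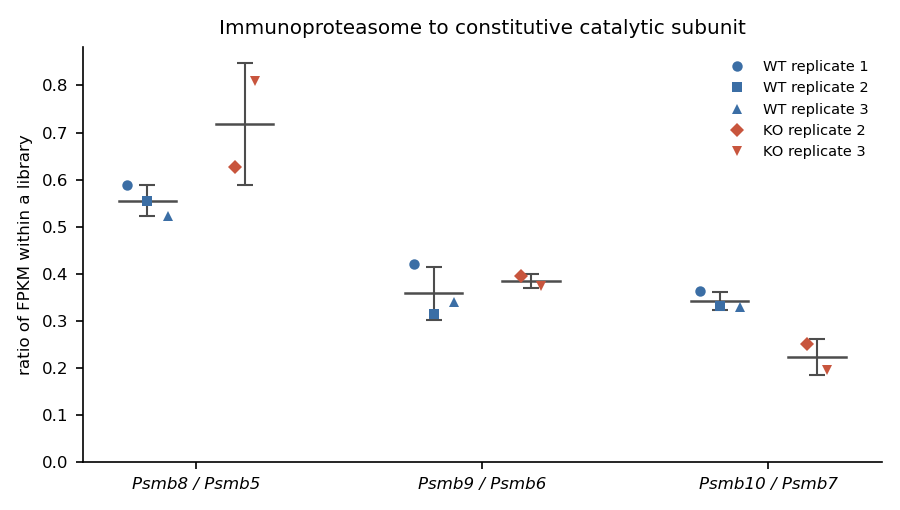
Ratio of the FPKM of an immunoproteasome subunit to that of the constitutive subunit it replaces, within each library (vertical axis, from 0), with points for the libraries and bars for the mean ± SD of 3 WT and 2 KO libraries. The Psmb8 to Psmb5 ratio is higher in both KO libraries (0.627 and 0.811), the Psmb10 to Psmb7 ratio is lower (0.251 and 0.197), and the Psmb9 to Psmb6 ratio overlaps.

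Psmb8 and Psmb9 lie in the MHC region of chromosome 17 beside the genes of the peptide transporter that feeds MHC class I. In GRCm38.p6, Psmb9 spans chr17:34182030-34187330, Tap1 chr17:34187556-34197225, Psmb8 chr17:34198195-34201454 and Tap2 chr17:34204479-34216321. Psmb9 and Tap1 are read away from each other, with 225 bases between them. Psmb10 lies apart, at chr8:105935728-105938392, and Psme1 and Psme2 lie 5912 bases apart on chromosome 14. Of these neighbours on chromosome 17, Tap2 rose, from 58.9, 53.4 and 53.1 FPKM in WT to 72.5 and 73.3 FPKM in KO (log2 change 0.40 ± 0.08, adjusted p = 0.0102). Its groups did not overlap. Leaving out WT replicate 2 lost the call (adjusted p = 0.0501), as did sex as a covariate (0.122). Tap1, at 20.8, 20.0 and 21.1 FPKM in WT and 20.6 and 24.3 FPKM in KO, did not pass (0.11, adjusted p = 0.432).

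The upstream sequences of the catalytic genes are shown for 4 of the 6 genes whose ratios were compared. They are the 250 bases before a RefSeq start site in GRCm38.p6, 5′ to 3′ in the direction of the gene. Capitals mark a match to TGACNNNGC, the core of the element bound by NRF1 and NRF2. Psmb5 is at chr14:54617996-54618245 on the minus strand, Psmb6 at chr11:70525107-70525356 on the plus strand, Psmb8 at chr17:34197945-34198194 on the plus strand and Psmb9 at chr17:34187331-34187580 on the minus strand. The window of Psmb9 covers the whole stretch between it and Tap1. The window of Psmb6 runs past the annotated start of the gene, at 70525324, so its last bases, with the marked match, lie inside the gene.
Psmb5: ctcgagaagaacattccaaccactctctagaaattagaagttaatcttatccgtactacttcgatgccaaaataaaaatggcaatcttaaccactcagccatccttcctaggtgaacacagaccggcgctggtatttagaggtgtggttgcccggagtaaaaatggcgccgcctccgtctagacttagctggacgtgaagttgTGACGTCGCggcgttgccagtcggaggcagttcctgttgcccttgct
Psmb6: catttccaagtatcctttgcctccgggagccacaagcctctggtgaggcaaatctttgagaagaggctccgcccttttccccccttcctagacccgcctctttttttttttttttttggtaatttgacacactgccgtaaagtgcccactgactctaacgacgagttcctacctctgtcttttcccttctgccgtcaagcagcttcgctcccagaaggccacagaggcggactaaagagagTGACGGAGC
Psmb8: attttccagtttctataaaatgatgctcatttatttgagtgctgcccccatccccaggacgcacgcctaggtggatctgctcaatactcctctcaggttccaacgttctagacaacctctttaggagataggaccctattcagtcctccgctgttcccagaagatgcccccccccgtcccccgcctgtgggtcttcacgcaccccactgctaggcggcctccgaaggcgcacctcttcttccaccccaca
Psmb9: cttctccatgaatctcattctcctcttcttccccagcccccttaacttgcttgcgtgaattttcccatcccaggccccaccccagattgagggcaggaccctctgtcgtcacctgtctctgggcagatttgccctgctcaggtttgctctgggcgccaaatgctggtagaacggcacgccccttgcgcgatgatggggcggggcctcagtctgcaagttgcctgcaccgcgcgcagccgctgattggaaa

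Psmb5 and Psmb6 each hold 1 match to TGACNNNGC on the gene's strand, starting at -47 and -9 from the start site used for the window. For Psmb6 that site lies downstream of the annotated start of the gene, and so does the match. No match to this motif or to the core of the interferon-stimulated response element, read as GAAA, any 2 bases and GAAA, was found in the 300-base windows (250 before and 50 after the start) of Psmb8, Psmb9 or Psmb10. Over both strands of all such windows, TGACNNNGC was found in 6 of 44 windows of proteasome genes (13.6%; Psmb5, Psmb6, Psmc6, Psmd9, Psmd12 and Psme4) and in 12.4% of all 32851 windows. Of these 6 genes, Psmb5 and Psmb6 passed the expression test and the other 4 did not. The interferon-stimulated response element core was found in 5 of 44 (11.4%; Psmb3, Psmd4, Psmd9, Psme1 and Psmg4) against 3.44%. Psmd9 holds both motifs, and no 2 matches of different motifs cover the same bases. The windows belong to 41 of the 49 genes, and Psma8, Psmb1, Psmb2, Psmb7, Psmc3, Psmd3, Psmd7 and Psmg2 had none. A match to such short letters is a description of sequence and says nothing of binding.

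In the α ring, which gates entry to the core, 3 of 8 genes fell and none rose. The share of lower genes was 37.5%, against 13% of all tested genes, and 9.08% of all tested genes were higher. Psma6 was at 180.5, 176.4 and 183.7 FPKM in WT and at 147.5 and 132.1 FPKM in KO (log2 change -0.37 ± 0.08, adjusted p = 0.0152). Psma7 was at 192.6, 172.7 and 189.6 FPKM in WT and at 151.7 and 135.4 FPKM in KO (-0.36 ± 0.09, adjusted p = 0.0237). In both genes KO was at about the same share of WT, 77.6%, with no overlap of the groups. Psma8, an α subunit known from the testis, was scarce, at 1.36, 1.57 and 1.51 FPKM in WT and 0.51 and 0.41 FPKM in KO (-0.76 ± 0.14, adjusted p = 0.00855). It passed the filter on low values only through its WT libraries, so its call gives no support to the count of 3. Without Psma8, the share of tested proteasome genes that were lower was 19.1%. Psma2, the most abundant of the ring at 199.2 ± 7.60 FPKM in WT (SD, n = 3) and 165.5 ± 20.8 FPKM in KO (SD, n = 2), did not pass (-0.27, adjusted p = 0.0837). Psma1 had the smallest change (-0.12, adjusted p = 0.413), with KO replicate 2 inside the WT range. Without KO replicate 2 both passed (-0.40 and -0.25, adjusted p = 0.0131 and 0.0373). The call of Psma6 was lost without WT replicate 2 or 3 (0.0544 and 0.0677), that of Psma7 without WT replicate 1 (0.0732), WT replicate 3 (0.0909) or KO replicate 3 (0.0738), and those of the 3 genes with sex as a covariate (0.0729 to 0.106).

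None of the constitutive β ring genes beyond the catalytic subunits passed the test. Psmb4, which had the highest mean level of the 49 genes, was at 226.2, 216.5 and 224.0 FPKM in WT and at 195.9 and 166.8 FPKM in KO (-0.30 ± 0.09, adjusted p = 0.0519). Psmb1 was at 185.9, 184.4 and 192.5 FPKM in WT and at 203.3 and 159.2 FPKM in KO (-0.06 ± 0.11, adjusted p = 0.741), so its KO libraries lay on both sides of WT. Both passed without KO replicate 2 (-0.41 and -0.24, adjusted p = 0.00897 and 0.0445). Psmb11, the β subunit of thymic cortical cells, was at 0 to 0.11 FPKM and was not tested.

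In the 19S cap, 1 of 6 ATPases (16.7%) and 3 of 11 other subunits (27.3%) fell, against 13% of all tested genes, and none rose. Psmc1, an ATPase of the base, was at 98.0, 100.4 and 97.0 FPKM in WT and at 75.5 and 72.8 FPKM in KO. The KO libraries were close to each other and far below WT, a log2 change of -0.40 ± 0.07 (adjusted p = 0.00566), the lowest adjusted p of the 48 genes. Psmc3, the most abundant of the ATPases (-0.20, adjusted p = 0.149), and Psmc6 (-0.06, 0.580) did not pass. Psmd14, the enzyme that cleaves ubiquitin chains from proteins at the cap, was at 75.5, 70.0 and 70.8 FPKM in WT and at 58.3 and 54.1 FPKM in KO (-0.35 ± 0.07, adjusted p = 0.0154). Psmd7, its partner subunit, was at 63.4, 64.4 and 64.5 FPKM in WT and at 53.1 and 52.6 FPKM in KO (-0.27 ± 0.06, adjusted p = 0.0231). In both partners the KO libraries lay below every WT library, by a wider gap than that between the KO libraries themselves. Psmd8, a lid subunit, was at 133.6, 139.2 and 138.1 FPKM in WT and at 112.1 and 98.1 FPKM in KO (-0.38 ± 0.08, adjusted p = 0.0155). Psmd11, a lid subunit, was at 39.4, 39.0 and 43.4 FPKM in WT and at 37.4 and 44.0 FPKM in KO, and was the 1 gene of the 48 without a negative estimate (0.00, adjusted p = 0.999). All 4 of these cap genes lost their call when sex was a covariate (adjusted p = 0.0546 to 0.172). Leaving out WT replicate 1 or 3 lost Psmd14 (0.0515 and 0.0520), WT replicate 2 or 3 Psmd8 (0.0653 and 0.0612), and WT replicate 1, 2 or 3 Psmd7 (0.0655, 0.0976 and 0.0958), whose call was lost under 8 of 14 alternatives in all, while Psmc3 passed without KO replicate 2 (-0.32, 0.0161).

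The median of the core genes was higher than that of the cap genes in all libraries, in FPKM, which are per length. Single genes overlapped: the WT mean was 137.0 FPKM for Psmd8 of the cap and 95.6 FPKM for Psma5 of the core. The median of 14 core genes was 161.0, 157.7 and 154.4 FPKM in the 3 WT libraries and 145.5 and 118.2 FPKM in KO. The median of 17 cap genes was 71.2, 72.8 and 70.8 FPKM in WT and 60.8 and 56.0 FPKM in KO. The ratio of the medians was between 2.17 and 2.26 in WT, and the KO libraries lay outside that range on both sides, at 2.39 and 2.11. Within WT, the most and the least abundant member differed 2.08-fold in the α ring (leaving out Psma8), 1.77-fold in the constitutive β ring, 1.58-fold among the ATPases and 3.37-fold among the other cap subunits.

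The remaining regulators did not pass. Psme3, the nuclear PA28γ activator, was at 58.3, 59.1 and 60.5 FPKM in WT and at 53.2 and 53.0 FPKM in KO (log2 change -0.16 ± 0.07, adjusted p = 0.138). Its KO libraries were nearly equal and below WT. Psme4, the PA200 activator, was at 16.0, 17.7 and 17.4 FPKM in WT and 15.7 and 17.6 FPKM in KO, so that the groups overlapped (-0.03, adjusted p = 0.824). Of 7 assembly chaperones none passed, and 1 had an unadjusted p under 0.05, with a median log2 change of -0.13. Psmd5 was the most abundant (32.9 FPKM in WT and 30.1 FPKM in KO), and the ring chaperone genes Psmg1 and Psmg3 had estimates of -0.02 and -0.23. KO replicate 2 was above every WT library in Psmg1 and level with the highest in Psmg3, and KO replicate 3 was below every WT library in both. Without KO replicate 3 both estimates were positive (0.19 and 0.07), and without KO replicate 2 Psmg3 passed (-0.54, adjusted p = 0.0176). Psmc3ip, the name match, was at 6.40, 6.06 and 6.99 FPKM in WT and 5.08 and 5.32 FPKM in KO (-0.27, adjusted p = 0.0979).

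Of 16 tested proteasome genes that carry other names, 2 fell and none rose, with a median log2 change of -0.16. Their share of lower genes, 12.5%, was close to the 13% of all tested genes. Adrm1, a ubiquitin receptor of the cap, was at 58.8, 60.6 and 56.7 FPKM in WT and at 49.9 and 46.0 FPKM in KO (-0.29 ± 0.07, adjusted p = 0.0319). Rad23b, which ferries ubiquitinated proteins to the proteasome, had a log2 change of -0.25 ± 0.07 (adjusted p = 0.0464). In each gene the KO libraries lay below every WT library. Each call was lost under 10 of 14 alternatives, among them leaving out WT replicate 1, 2 or 3 (adjusted p = 0.0770 to 0.158), KO replicate 3 for Adrm1 (0.0843) and KO replicate 2 for Rad23b (0.0880).

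In the NRF1 pathway, which raises proteasome transcription when proteasome activity is short, 2 of 10 genes fell and none rose. The share of lower genes was 20%, against 13% of all tested genes, and 9.08% of all tested genes were higher. Nfe2l1, the gene of NRF1, was at 31.6, 32.8 and 31.4 FPKM in WT and at 31.4 and 30.1 FPKM in KO (-0.05 ± 0.07, adjusted p = 0.637), with a sign that turned after upper-quartile scaling and quantile normalization. Nfe2l2, the gene of the related factor NRF2, fell from 57.6, 51.4 and 51.7 FPKM in WT to 38.0 and 37.5 FPKM in KO (-0.49 ± 0.08, adjusted p = 0.00498). Bach1, a repressor at the same elements, had a log2 change of -0.45 ± 0.11 (adjusted p = 0.0236). Nfe2l2 passed under all 14 alternatives, and Bach1 did not without WT replicate 1, 2 or 3 or KO replicate 2 (0.0560 to 0.0772) or with sex as a covariate (0.114).

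Among regulators of the immunoproteasome genes, 7 of 13 fell and 1 rose, with a median log2 change of -0.39. The share of lower genes was 53.8%, against 13% of all tested genes, and 9.08% of all tested genes were higher. Irf8, an interferon regulatory factor of monocytes and dendritic cells, fell from 13.6, 16.9 and 13.6 FPKM in WT to 4.13 and 2.57 FPKM in KO (-1.87 ± 0.17, adjusted p = 0.000585). Ifngr1, the ligand-binding chain of the interferon γ receptor, fell from 70.4, 61.6 and 60.6 FPKM to 28.6 and 27.8 FPKM (-1.15 ± 0.09, adjusted p = 0.000350). Both genes had KO libraries far below every WT library and passed under all 14 alternatives. Nlrc5, the transactivator of MHC class I, Psmb9 and Tap1, was low, at 1.26, 1.35 and 1.30 FPKM in WT and 0.38 and 0.38 FPKM in KO (-0.74 ± 0.14, adjusted p = 0.00942), and passed the filter only through WT. Its call therefore gives no support to the count of 7, and was lost with sex as a covariate (0.0692). Irf1, a factor that acts at the Psmb9 and Tap1 promoter, had a log2 change of -0.39 ± 0.09 (adjusted p = 0.0249), a call lost under 8 of 14 alternatives, among them leaving out WT replicate 1, 2 or 3 or KO replicate 3 (0.0578 to 0.0948). Socs1, a feedback inhibitor of cytokine signalling, was the member that rose, from 63.7, 56.6 and 61.6 FPKM to 103.7 and 95.4 FPKM (0.71 ± 0.08, adjusted p = 0.00130).

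**Figure D4:**
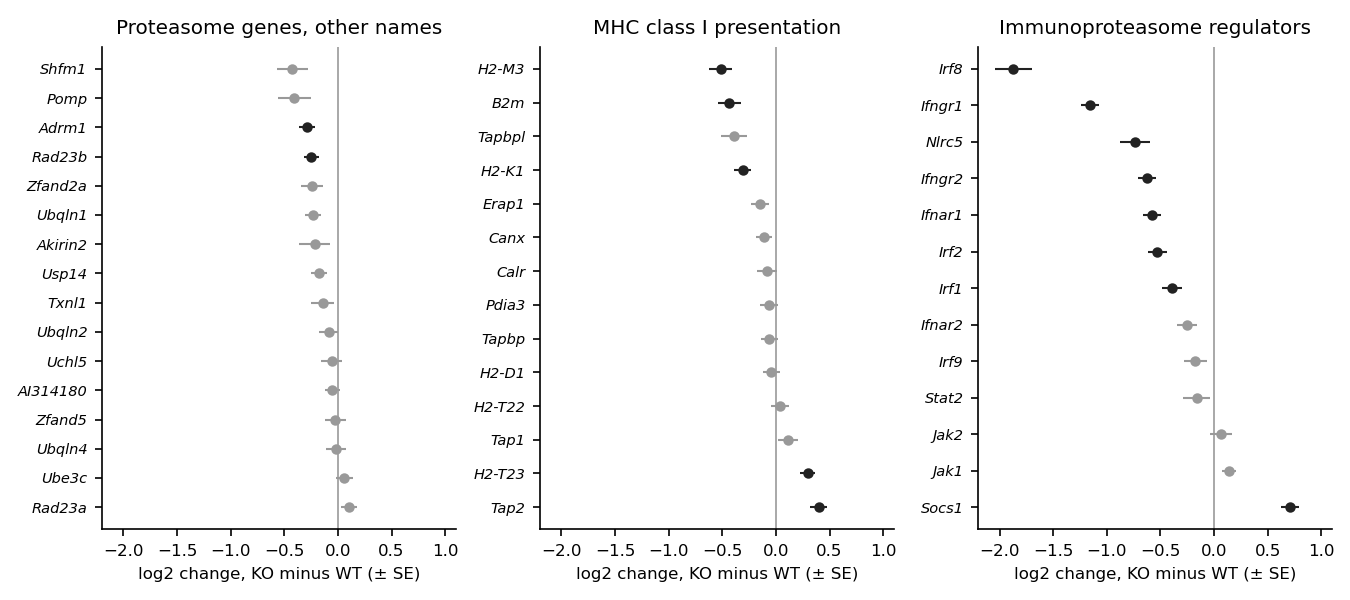
Log2 change, KO minus WT, with its standard error, of tested genes of the proteasome with other names, of MHC class I presentation and of regulators of the immunoproteasome genes (horizontal axes). Black points passed an adjusted p of 0.05 and grey points did not. In turn, 2 of 16, 5 of 14 and 8 of 13 genes are black, against 22.1% of all tested genes. Irf8 and Ifngr1 lie farthest to the left and Socs1 and Tap2 to the right.

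Of 14 genes of MHC class I presentation, which uses the peptides that the proteasome makes, 3 fell and 2 rose. The share of lower genes was 21.4%, against 13% of all tested genes, and 9.08% of all tested genes were higher. The median log2 change of the 14 genes was -0.08. B2m, the light chain, was at 1081, 1015 and 896.2 FPKM in WT and at 753.3 and 719.3 FPKM in KO (-0.43 ± 0.10, adjusted p = 0.0245). H2-K1, a classical heavy chain, was at 348.8, 364.2 and 352.0 FPKM in WT and at 301.7 and 271.6 FPKM in KO (-0.31 ± 0.08, adjusted p = 0.0319). H2-M3, which presents formylated peptides, had a log2 change of -0.52 ± 0.11 (adjusted p = 0.0161). The genes that rose were Tap2 and H2-T23 (0.30 ± 0.07, adjusted p = 0.0211), the latter named after its value was seen. The calls of H2-K1, B2m and H2-M3 were lost under 9, 5 and 4 of 14 alternatives, among them leaving out WT replicate 2 (adjusted p = 0.127, 0.0940 and 0.0558). Those of H2-K1 and B2m were also lost without WT replicate 1 (0.0771 and 0.0762) or KO replicate 3 (0.0599 and 0.0702), those of H2-K1 and H2-M3 without WT replicate 3 (0.111 and 0.0572), and that of H2-M3 without KO replicate 2 (0.0601).

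Markers of cell types differed with genotype, and their part in the values of Psmb10, the PA28αβ genes and of their regulators was not tested. For the counts below, 13% of all tested genes were lower and 9.08% higher. The monocyte and macrophage markers summed to between 6478 and 8351 FPKM in WT and to 2703 and 2926 FPKM in KO, with Lyz2 (-1.89) and Trem2 (-2.10) among the 13 of 15 that fell. The dendritic cell and MHC class II markers summed to between 1649 and 2244 FPKM in WT and to 165.8 and 325.9 FPKM in KO, with H2-Aa (-3.30) and H2-Eb1 (-3.24) among the 7 of 7 tested that fell. Ciita, also among the 7, was at 3.94, 3.47 and 3.38 FPKM in WT and at 0.57 and 0.29 FPKM in KO. It passed the filter on low values only through WT, so its call gives no support to that count. The neutrophil markers summed to between 22014 and 32622 FPKM in WT and to 12596 and 16331 FPKM in KO, with Elane (-2.23) and Mpo (-1.51) among them. Mast cell markers summed to between 11722 and 13468 FPKM in WT and to 27804 and 32024 FPKM in KO, with Cpa3 (1.39) and Tpsb2 (1.30) among the 7 of 10 that rose, and 3 of 5 basophil markers rose, among them Gzmb (1.27) and Cd200r3 (1.01), whereas the basophil proteases Mcpt8 (-0.22) and Prss34 (-0.06), named after their values were seen, did not pass. The 2 B cell markers in the table summed to at most 2.79 FPKM in any library. Of the T and NK cell markers the 1 tested, Nkg7, was lower (-0.59), a call lost without KO replicate 3 (-0.54). The others in the table were scarce, with Cd8a at most 0.66 FPKM and Klrb1c at most 0.06 FPKM. Ncr1 went the other way, at 0.50 and 0.29 FPKM in KO and at most 0.15 FPKM in WT. Nkg7 alone therefore does not show T or NK cells here. No marker in the table was at 0 in all libraries.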

How the data were processed

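FPKM per gene, rounded to 2 decimals, were deposited by the authors, per the file headers. HISAT, StringTie 1.2.1, edgeR and the build mm10 are named in the submitters' processing notes with no role or order, and no source used here gives the annotation, counting rules or strand. Reads of overlapping antisense genes may therefore not be told apart. The deposited FPKM carry no read totals, and ratios of low values between libraries did not pile up on a few values, so depth and counting error are unknown. Genes with at least 1 FPKM in at least 2 libraries (11365) were tested with limma 3.58.1 in R 4.3.3 on log2(FPKM + 1), a trend of variance on mean level, genotype as the only term and Benjamini-Hochberg adjustment over all tested genes. Fold changes on this scale understate the change of low genes. In simulated data the procedure recovered 22.7% of 1.2-fold and 99.4% of 1.5-fold changes. The noise there was set equal for all genes and not taken from these libraries. A change near 1.2-fold that did not pass is therefore not shown to be absent. Names and positions came from RefSeq, GRCm38.p6 (14603 of 14639 gene numbers matched), and promoter windows from RefSeq of the same build. The genes, lists and tests were chosen with earlier results of these data known, and lists were described by counts and medians. Some genes, left out of the lists and their medians, and a sequence motif are not reported here. Genes were named if they passed, if they were one of the catalytic or PA28 genes, their counterparts or one of 6 fixed regulators and presentation genes, or if they had the largest rise, largest fall or highest level of their class. From other lists up to 4 genes that passed (2 for cell types) were named by size. Alternatives changed the pseudocount, filter, scaling, variance model, covariates or libraries.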

Additional observations from a re-analysis of the deposited data

How the results depend on the processing

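The number of proteasome genes lower in KO was 10 and ranged from 4 to 29 when 1 library was left out, and no proteasome gene was higher under any of the 14 alternatives. It was 5 with a replicate block and 1 with sex as a covariate. Over all genes, 2507 were called, 1312 with sex as a covariate and between 1623 and 2659 when 1 library was left out. The share of all tested genes that were lower was 6.97% with sex as a covariate and 15.0% without KO replicate 2. The median log2 change of the genes outside the immunoproteasome and PA28 group, -0.20, was -0.14 after upper-quartile scaling, -0.13 after quantile normalization and between -0.29 and -0.15 when 1 library was left out. That of the 5 immunoproteasome and PA28 genes, -0.27, was between -0.47 and -0.14 when 1 library was left out. Replicate numbers were shared by WT and KO replicates 2 and 3, but the labels do not say that a number marks a shared animal or day, and deviations from the group means correlated at -0.03 and 0.10, so the replicate block is not read as pairing. Genes near 0 changed sign without passing, in log2 change. After median-of-ratios scaling Psmb8 was 0.0039, Psme4 0.0097 and Psmg1 0.0284. After upper-quartile scaling Psmb8 was 0.0230, Psme4 0.0279, Psmg1 0.0469, Psmb1 0.0053, Psmc6 0.0031 and Nfe2l1 0.0101. After quantile normalization Psmb8 was 0.0445, Psme4 0.0086, Psmg1 0.0367, Psmb1 0.0253, Psmc6 0.0148 and Nfe2l1 0.0305. With the replicate block Psmb8 was 0.0120 and Psmd11 -0.0200, and with sex as a covariate Psme4 was 0.0479. When 1 library was left out, the estimates ranged from -0.10 to 0.0120 for Psmb8, -0.112 to 0.0438 for Psme4, -0.2235 to 0.1910 for Psmg1, -0.2355 to 0.1152 for Psmb1, -0.2518 to 0.0150 for Psma1, -0.5388 to 0.0721 for Psmg3, -0.0034 to 0.2272 for Tap1 and -0.1142 to 0.1148 for Psmd11. The cause of these changes was not tested. The differences in log2 ratio, KO minus WT, kept their sign under the alternatives run, from 0.18 to 0.55 for Psmb8 to Psmb5, 0.02 to 0.23 for Psmb9 to Psmb6 and -0.80 to -0.45 for Psmb10 to Psmb7. Without read totals, the counting error of low genes such as Psma8 and Nlrc5 cannot be given.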

Other observations

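Of 18 genes of the interferon response, 13 were tested, and 4 were lower and 1 was higher in KO. The share of lower genes was 30.8%, against 13% of all tested genes, and 9.08% of all tested genes were higher. The median log2 change of the 13 genes was -0.40. Oas1a, which senses double-stranded RNA, was at 14.2, 15.0 and 12.0 FPKM in WT replicates 1, 2 and 3 and at 4.75 and 4.20 FPKM in KO replicates 2 and 3 (log2 change -1.43 ± 0.12 SE, limma adjusted p = 0.000426). Its KO libraries lay far below WT, and it passed under all 14 alternatives. Rtp4 (-0.88), Ifit2 (-0.83) and Isg15 (-0.66) had low levels, under 7 FPKM in every library, and adjusted p values of 0.0220, 0.0106 and 0.0234. Rtp4 and Ifit2 were under 1 FPKM in both KO libraries and passed the filter on low values only through WT, so their calls give no support to the count of 4. The calls of Rtp4, Ifit2 and Isg15 were lost without KO replicate 2 (adjusted p = 0.0577, 0.0513 and 0.0826), that of Rtp4 also without KO replicate 3 (0.109), and that of Isg15 without WT replicate 2 (0.0723). Sex as a covariate lost Rtp4 (0.155) and Isg15 (0.144) too. Usp18, named after its value was seen, was the gene that rose (0.65, adjusted p = 0.0164).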
